A study of Mus musculus with 4 samples.

Results

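The 10 Toll-like receptor genes Tlr1, Tlr2, Tlr3, Tlr4, Tlr5, Tlr6, Tlr7, Tlr8, Tlr9 and Tlr13 were examined among 21883 protein-coding mouse genes. Each locus was taken as the gene body plus 20 kb on either side in mm10, and every accessible interval that shared a base with it was kept. Overlapping intervals of the 4 libraries were merged into regions, which gave 98 regions in the Tlr loci among 120423 in the genome. The loci held 74 intervals in Cxcr3-/- monocytes, 87 in WT monocytes, 75 in Cxcr3-/- CMP/GMP and 61 in WT CMP/GMP. In the same order the whole lists held 78244, 98257, 80171 and 69521 intervals. The share in the Tlr loci was thus similar, at 0.0946%, 0.0885%, 0.0936% and 0.0877%. On lists cut to equal length the loci held 68, 66, 70 and 61 intervals. Open chromatin was mapped by Omni-ATAC-seq, an assay in which a transposase cuts and tags DNA that nucleosomes leave exposed. The material was bone-marrow-derived cells of C57BL/6J mice kept in culture, and the libraries, 1 per group, came from Cxcr3-/- monocytes, WT monocytes, Cxcr3-/- CMP/GMP and WT CMP/GMP, where CMP/GMP stands for a culture of common myeloid progenitors together with granulocyte-monocyte progenitors. Cxcr3-/- mice lack the chemokine receptor Cxcr3, and the wider study concerns this receptor in macrophages of liver cancer that was induced in mice with diethylnitrosamine and tetrachloromethane. All 4 libraries are labelled with hepatocellular carcinoma as disease state, while the design text describes these cells as cultured. Age, sex and the extent of the Cxcr3 deletion are not stated by the labels.

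Toll-like receptors are membrane proteins of innate immune cells that recognise conserved parts of microbes. Tlr1, Tlr2, Tlr4, Tlr5 and Tlr6 act at the cell surface, mainly on bacterial lipoproteins, lipopolysaccharide and flagellin. Tlr3, Tlr7, Tlr8, Tlr9 and Tlr13 sit in endosomes and sense nucleic acids. Most of them signal through the adaptor Myd88 to NF-kB and interferon regulatory factors, while Tlr3 uses Ticam1 and Tlr4 uses both. Monocytes and macrophages are among the cells known for this equipment, and myeloid progenitors also carry several of the receptors.

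Promoter sequence was matched in RefSeq (GRCm38.p6, the same coordinates as mm10) for 8 of the 10 genes. No entry was matched for Tlr4 and Tlr7. The promoters shown are those of Tlr2, Tlr3, Tlr9 and Tlr13, over which an interval was called in all 4 libraries, and of Tlr8, where one was called in WT monocytes and Cxcr3-/- CMP/GMP but in neither of the other libraries. Each runs over the 250 bases before the annotated start, 5′ to 3′ in the direction of the gene, and capitals mark motif matches. Tlr2 lies at chr3:83841609-83841858 on the minus strand, Tlr3 at chr8:45410381-45410630 on the minus strand, Tlr9 at chr9:106222348-106222597 on the plus strand, Tlr13 at chrX:106143025-106143274 on the plus strand and Tlr8 at chrX:167264330-167264579 on the minus strand.
Tlr2: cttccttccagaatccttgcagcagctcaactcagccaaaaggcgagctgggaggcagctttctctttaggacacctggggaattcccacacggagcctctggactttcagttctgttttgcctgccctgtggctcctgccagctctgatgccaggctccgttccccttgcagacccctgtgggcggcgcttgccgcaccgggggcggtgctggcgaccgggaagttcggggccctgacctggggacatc
Tlr3: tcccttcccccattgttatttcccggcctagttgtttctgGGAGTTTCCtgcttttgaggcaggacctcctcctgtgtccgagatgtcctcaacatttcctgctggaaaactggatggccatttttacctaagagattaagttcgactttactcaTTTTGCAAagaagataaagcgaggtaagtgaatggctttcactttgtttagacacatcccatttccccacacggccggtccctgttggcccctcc
Tlr9: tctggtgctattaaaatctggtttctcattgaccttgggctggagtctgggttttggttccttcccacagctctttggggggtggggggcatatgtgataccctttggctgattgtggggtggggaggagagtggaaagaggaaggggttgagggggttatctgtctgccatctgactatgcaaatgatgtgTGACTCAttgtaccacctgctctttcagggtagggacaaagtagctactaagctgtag
Tlr13: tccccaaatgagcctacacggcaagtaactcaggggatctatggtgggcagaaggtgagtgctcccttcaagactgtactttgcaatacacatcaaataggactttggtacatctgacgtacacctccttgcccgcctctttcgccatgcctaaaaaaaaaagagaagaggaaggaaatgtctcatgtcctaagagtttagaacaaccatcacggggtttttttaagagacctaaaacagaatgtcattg
Tlr8: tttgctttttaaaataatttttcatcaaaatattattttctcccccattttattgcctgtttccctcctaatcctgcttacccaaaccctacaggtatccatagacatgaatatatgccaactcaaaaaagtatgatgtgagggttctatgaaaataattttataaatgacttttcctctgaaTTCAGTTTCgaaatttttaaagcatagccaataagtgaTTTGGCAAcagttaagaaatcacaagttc

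6 motifs were searched on both strands in the 250 bases before each start. The 8 genes have 10 such windows, since Tlr1 and Tlr6 have 2 starts each, and the shares given are per window. The C/EBP motif TTGCNNAA was found at Tlr3, Tlr6 and Tlr8, and 9.56% of all 32851 promoter windows hold it. The IRF motif GAAANNGAA was found at Tlr6 and Tlr8, against 7.13% of all windows. For the NF-kB motif GGNNTTTCC the matches were at Tlr3 and Tlr5, against 4.93%, for the AP-1 motif TGANTCA at Tlr9 alone, against 6.75%, and for the PU.1 motif GAGGAAGT at Tlr1 alone, against 2.44%. The MiT family E-box TCACGTGA was found at none of the 8 genes, against 0.785% of all windows. In the printed promoters the capitals are, in order, the NF-kB and C/EBP matches of Tlr3, the AP-1 match of Tlr9, and the IRF and C/EBP matches of Tlr8. At Tlr6 a pair of IRF matches overlaps by 3 bases. The Tlr6 matches all lie in the window chr5:64959167-64959416, over which no interval was called in any library. These matches describe the letters of the windows and not binding. Among the 8 genes with a matched promoter, that of Tlr2 was the richest in G and C, at 62.8% with 11 CG pairs. That of Tlr8 had 31.2% and 1 CG pair, and the median of all windows was 52.4% and 6.

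A region's strength was read as its summit pileup, the number of sequenced tags stacked at the summit. The median pileup over a whole list was 21 tags in Cxcr3-/- monocytes, 21 in WT monocytes, 29 in Cxcr3-/- CMP/GMP and 21 in WT CMP/GMP, while the files give no total read depth. Pileups are printed as counted, and ratios were computed after dividing them by 0.846, 1.08, 1.35 and 0.826 in the same order. Each log2 ratio carries an exact 95% interval for counting error only, and no p-value is given, because a group of 1 library leaves differences without any check by replicates. At the Cxcr3 gene end on chromosome X, from 101733698 to 101734465, an interval was called in every library, with 23 tags in Cxcr3-/- monocytes, 41 in WT monocytes, 84 in Cxcr3-/- CMP/GMP and 34 in WT CMP/GMP, which checks nothing about a deletion of unknown extent. The loci of 12 CMP/GMP marker genes held 76 and 93 intervals in Cxcr3-/- and WT monocytes and 103 and 95 in Cxcr3-/- and WT CMP/GMP. Loci of 10 monocyte markers held 85 and 111 in the monocytes against 84 and 68 in the CMP/GMP, and those of 10 macrophage markers 85 and 106 against 70 and 63. Neutrophil marker loci held 44 and 55 against 59 and 49, dendritic cell marker loci 76 and 98 against 85 and 72, and mast cell marker loci 16 and 21 against 30 and 22. The loci of B cell markers held 31 and 38 against 37 and 37, those of T and NK cells 27 and 31 against 29 and 24, those of erythroid cells and megakaryocytes 36 and 44 against 39 and 30, and those of hepatocytes and stroma 34 and 49 against 41 and 30. Loci of other lineages thus held intervals as well, and of all the markers matched Cd8a alone had none in any library. These counts are not corrected for list length. The lists held 78244 and 98257 intervals in Cxcr3-/- and WT monocytes and 80171 and 69521 in Cxcr3-/- and WT CMP/GMP. The marker counts are therefore no check of cell identity. The part of other cell types in the results for the Tlr genes was not tested.

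All 10 Tlr loci held accessible chromatin in all 4 libraries. So did at least 16611 of the 21883 gene loci, the number with a region shared by both libraries of each cell-type pair. In the family 49 of the 98 regions were called in every library, where the share of all regions was 37.0%. 23 regions lay within 1 kb of an annotated start or gene end, 28 others inside a gene and 47 between genes; 7 of the 98 lay inside a neighbouring gene only. Region width ran from 100 to 836 bases with a median of 286, against 257 over all regions. Density differed widely between the loci. Tlr13 held 2.62 regions per 10 kb, Tlr9 2.48, Tlr5 2.28 and Tlr7 2.23, while Tlr3 held 0.361. The overlapping loci of Tlr1 and Tlr6 share 2 regions, and those of Tlr7 and Tlr8 overlap without a shared region.

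**Figure D1:**
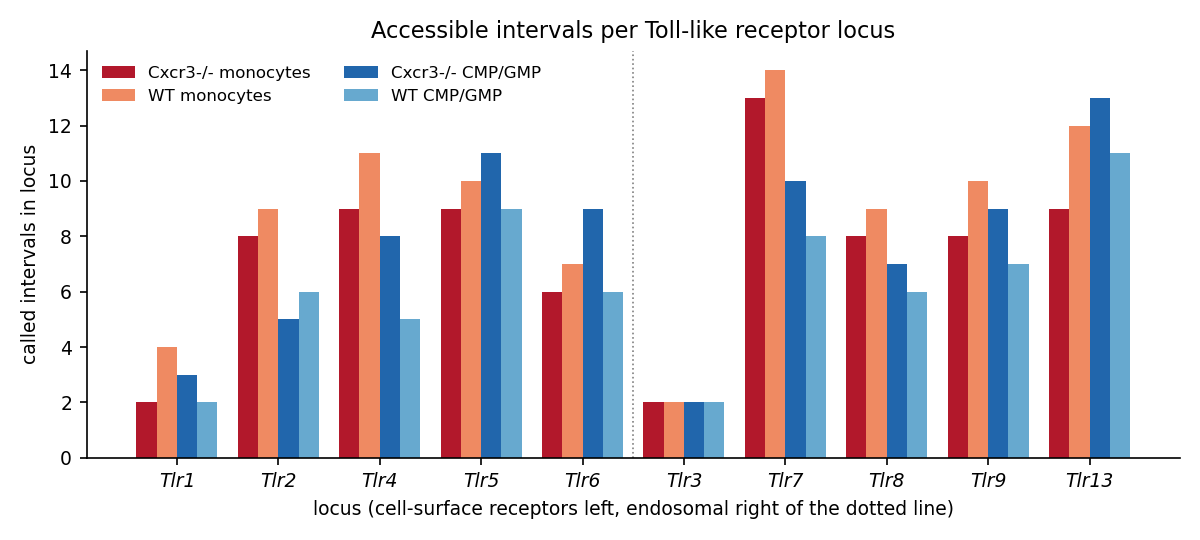
Bars give the number of accessible intervals (y axis) called in each library at each of the 10 Tlr loci (x axis), gene body plus 20 kb on either side, with surface receptors left and endosomal receptors right of the dotted line. Tlr7 held 13 and 14 intervals in Cxcr3-/- and WT monocytes against 10 and 8 in Cxcr3-/- and WT CMP/GMP, whereas Tlr3 held 2 in every library. The lists differ in length, and on lists cut to equal length Tlr7 held 11 and 10 against 10 and 8.

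The first comparison asked how the Tlr loci differ between monocytes and CMP/GMP. Tlr4 was the only locus whose summed signal had a counting interval above 0 in both genotypes, that is, higher in monocytes, and for no locus did it lie below 0 in both. Without regard to the intervals, Tlr2, Tlr5, Tlr6, Tlr8 and Tlr13 also had ratios above 0 in both genotypes, and Tlr1 had ratios below 0 in both. Across the genome, 9.74% of 16611 gene loci passed this rule upward and 9.33% downward, so a single locus of 10 is close to the background. Counted on lists of equal length, 8 Tlr regions of 86 were called in both monocyte libraries and in neither CMP/GMP library, against a background of 13.3%. The reverse held for 5 of 86, against 11.6%. The differences described next concern single regions.

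The locus of Tlr4, the receptor for bacterial lipopolysaccharide, lies on chromosome 4 and gave the clearest contrast between cell types. Inside the gene, 1313 bases from its lower-coordinate end, the region chr4:66828738-66828991 had 68 tags in Cxcr3-/- monocytes and 72 in WT monocytes and was called in neither CMP/GMP library. In bulk libraries a larger share of cells with open chromatin and more openness per cell cannot be told apart. At the local background a call would have needed about 19 tags in Cxcr3-/- CMP/GMP and 14 in WT CMP/GMP. The signal in both monocyte libraries was thus well above the level at which the CMP/GMP would have been called. Beyond the other end of the gene by 10678 bases, chr4:66857033-66857485 had 61 tags in Cxcr3-/- monocytes, 64 in WT monocytes, 21 in Cxcr3-/- CMP/GMP and 10 in WT CMP/GMP. Both monocyte libraries exceeded both CMP/GMP libraries, and the log2 ratio of monocytes over CMP/GMP was 2.22 (1.48 to 3.01) in Cxcr3-/- and 2.30 (1.33 to 3.42) in WT. Another region below the gene, chr4:66821834-66822130, had 47 and 36 tags in Cxcr3-/- and WT monocytes and 18 in Cxcr3-/- CMP/GMP, and was not called in WT CMP/GMP. Its log2 ratio was 2.06 (1.25 to 2.93) in the Cxcr3-/- cells.

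Some other Tlr4 regions differed less between the cell types. The region chr4:66827319-66828154 at the lower-coordinate gene end, the best-ranked of the family in every list but that of WT monocytes, had 130 and 142 tags in Cxcr3-/- and WT monocytes and 196 and 104 in Cxcr3-/- and WT CMP/GMP. After scaling its log2 ratio was 0.09 (−0.24 to 0.41) in Cxcr3-/- and 0.07 (−0.31 to 0.45) in WT, so a difference was not detectable there at this depth. The monocyte-only region lies further inside the gene, less than 1 kb from it. Deeper inside the gene, chr4:66843002-66843627 had 86 and 115 tags in the monocytes against 75 and 52 in the CMP/GMP, with log2 ratios of 0.88 (0.41 to 1.34) and 0.76 (0.28 to 1.27). Summed over the regions called in both libraries, Tlr4 had a log2 ratio of 0.63 (0.43 to 0.82) in Cxcr3-/- over 8 regions and of 0.47 (0.23 to 0.72) in WT over 5. Regions were also grouped by the number of genes in the 1 Mb window centred on them. Set against regions of similar gene density, the Cxcr3-/- ratio was 0.19 (−0.01 to 0.38), which no longer excludes 0. The WT ratio was then 0.35 (0.10 to 0.59).

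**Figure D2:**
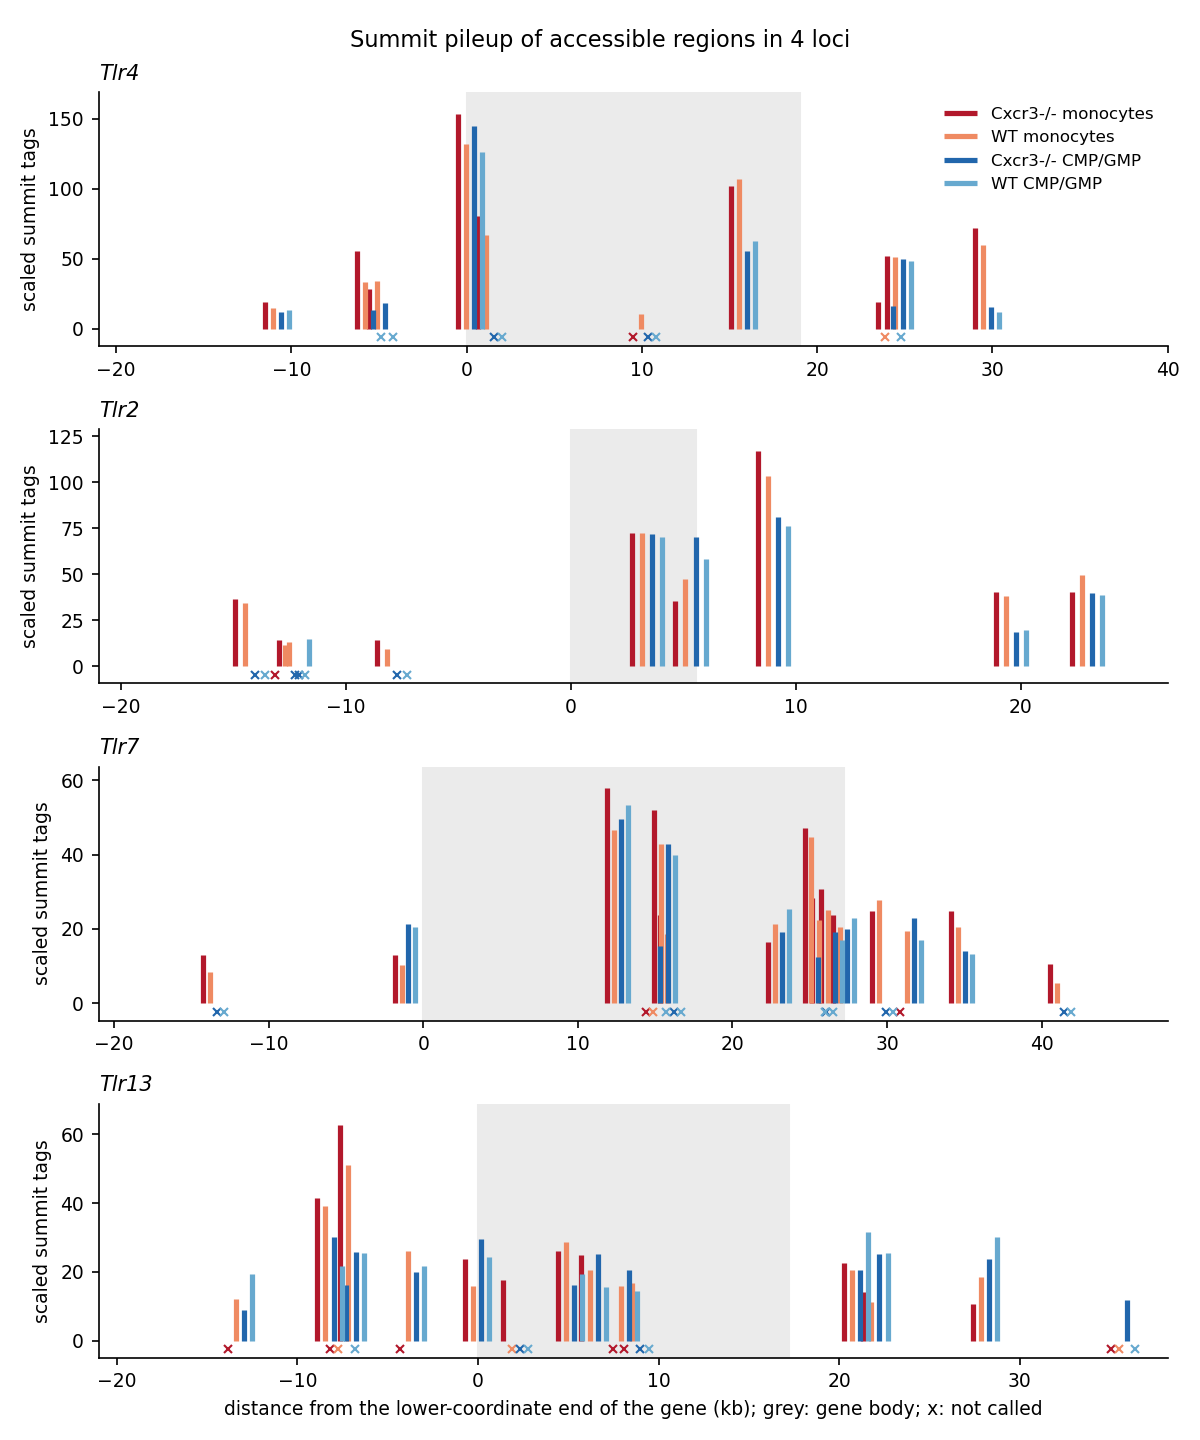
Lines give the scaled summit pileup in tags (y axis) of each region at Tlr4, Tlr2, Tlr7 and Tlr13 against its distance in kb from the lower-coordinate end of the gene (x axis); the 4 libraries are set side by side, grey marks the gene body and a cross a library in which the region was not called. At Tlr4 the region 1313 bases inside the gene and the one 10678 bases beyond its other end stand high in both monocyte libraries, while the tall region at the gene end lies between 126 and 154 scaled tags in all 4.

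Tlr2 senses bacterial lipoproteins as a dimer with Tlr1 or Tlr6. At its promoter, printed above, the region chr3:83841338-83841837 had 30 and 51 tags in Cxcr3-/- and WT monocytes and 95 and 48 in Cxcr3-/- and WT CMP/GMP. The log2 ratio was −0.98 (−1.63 to −0.38) in Cxcr3-/- and −0.29 (−0.89 to 0.31) in WT, so the promoter was lower in monocytes in the Cxcr3-/- pair, and the WT interval includes 0. Some regions away from the promoter were higher in monocytes, while chr3:83839436-83839845 inside the gene, with ratios of 0.01 in Cxcr3-/- and 0.05 in WT, and chr3:83859039-83859398, with 0.01 and 0.35, had intervals that include 0. The region chr3:83821863-83822124, 14279 bases beyond the lower-coordinate end, had 31 and 37 tags in the monocytes and was called in neither CMP/GMP library, where about 10 tags in Cxcr3-/- and 7 in WT would have sufficed. On the promoter side, chr3:83855717-83855978 had 34 and 41 tags in Cxcr3-/- and WT monocytes against 25 and 16 in the CMP/GMP, with log2 ratios of 1.12 (0.33 to 1.93) and 0.98 (0.11 to 1.91). The locus as a whole had ratios of 0.12 (−0.12 to 0.35) in Cxcr3-/- and 0.22 (−0.02 to 0.47) in WT, neither of which excludes 0.

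Tlr1 and Tlr6, the partners of Tlr2, are neighbours on chromosome 5. At Tlr1 the region called in all 4 libraries, chr5:64922885-64923436, had 20 and 28 tags in Cxcr3-/- and WT monocytes and 49 and 26 in Cxcr3-/- and WT CMP/GMP. Its log2 ratios, which are those of the locus, were −0.61 (−1.44 to 0.16) in Cxcr3-/- and −0.27 (−1.10 to 0.55) in WT. Below Tlr1, chr5:64918964-64919112 was called in monocytes alone, with 12 tags in Cxcr3-/- and 20 in WT. A weak region between the genes, chr5:64935423-64935663, was called in the CMP/GMP alone, with 16 tags in Cxcr3-/- and 9 in WT, near the limit of calling. Within Tlr6, chr5:64965557-64965712 was also called in CMP/GMP alone, with 32 tags in Cxcr3-/- and 21 in WT, where a call would have needed about 8 tags in Cxcr3-/- monocytes and 15 in WT monocytes. The neighbouring gene Fam114a1 overlaps this locus, and chr5:64980499-64980844 inside it had 32 and 47 tags in Cxcr3-/- and WT monocytes and no call in CMP/GMP. The region chr5:64969806-64970492 lies at the Fam114a1 start and also inside Tlr6, 793 bases from its upper-coordinate end. It had 31 and 55 tags in the monocytes against 35 and 14 in the CMP/GMP. Its log2 ratio was 0.50 (−0.24 to 1.24) in Cxcr3-/- and 1.59 (0.73 to 2.55) in WT. Summed with the other shared regions, the Tlr6 locus had a ratio of 0.20 (−0.15 to 0.54) in Cxcr3-/- and 0.69 (0.27 to 1.13) in WT.

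Tlr5 recognises flagellin and lies on chromosome 1. In front of the gene by 3282 bases, chr1:182951295-182951645 had 52 and 86 tags in Cxcr3-/- and WT monocytes and 41 and 23 in Cxcr3-/- and WT CMP/GMP. After scaling the monocytes were higher in both genotypes, with log2 ratios of 1.02 (0.40 to 1.65) and 1.52 (0.84 to 2.25). Beyond the far end of the gene, chr1:182990991-182991298 ran in the opposite direction, with 11 and 9 tags in the monocytes and 29 and 22 in the CMP/GMP. The ratio there was −0.72 (−1.87 to 0.32) in Cxcr3-/- and −1.67 (−2.97 to −0.49) in WT. The strongest Tlr5 region, chr1:182982997-182983410, had 82 and 102 tags in Cxcr3-/- and WT monocytes against 147 and 87 in Cxcr3-/- and WT CMP/GMP, with ratios of −0.16 and −0.15. On the equal-length lists 2 Tlr5 regions were called in CMP/GMP alone and none in monocytes alone, in both genotypes. They were chr1:182937498-182937850, with 17 and 12 tags in Cxcr3-/- and WT CMP/GMP, and chr1:182945686-182945816, with 21 and 15. The latter was also called in WT monocytes on the full list, with 14 tags. The locus ratio was 0.12 (−0.11 to 0.34) in Cxcr3-/- and 0.34 (0.11 to 0.58) in WT.

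Among the endosomal receptors, Tlr7, a sensor of single-stranded RNA on chromosome X, had the largest number of monocyte-only regions of the family, 3 on the equal-length lists. chrX:167319253-167319514, inside the gene, had 20 tags in each monocyte library and no call in CMP/GMP. Near the upper-coordinate end, chrX:167329026-167329438 had 24 tags in each monocyte library, and beyond that end chrX:167332995-167333198 had 21 and 30 in Cxcr3-/- and WT monocytes, again with no call in CMP/GMP. Calls in CMP/GMP would have needed about 10 to 13 tags in Cxcr3-/- and 8 to 10 in WT, so these regions were above the limit by a modest margin. Beside them chrX:167328501-167328937 had 40 and 48 tags in the monocytes, 17 in Cxcr3-/- CMP/GMP and no call in WT CMP/GMP. Its log2 ratio in Cxcr3-/- was 1.91 (1.06 to 2.82). The regions called in both cell types were less different, and the Tlr7 locus ratio was 0.42 (0.16 to 0.68) in Cxcr3-/- and −0.02 (−0.31 to 0.27) in WT.

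Tlr8, also a sensor of single-stranded RNA, lies next to Tlr7. Its strongest region, chrX:167229274-167229778, 11597 bases beyond the lower-coordinate end, had 71 and 105 tags in Cxcr3-/- and WT monocytes and 96 and 56 in Cxcr3-/- and WT CMP/GMP. The log2 ratio was 0.24 (−0.22 to 0.70) in Cxcr3-/- and 0.53 (0.04 to 1.02) in WT. Inside the gene, chrX:167262345-167262997 had 16 and 22 tags in the monocytes and no call in CMP/GMP. Over its promoter, printed above, 22 tags were called in WT monocytes and 19 in Cxcr3-/- CMP/GMP, and the other libraries had no call. The promoter call thus separated neither the cell types nor the genotypes. Inside the gene, 633 bases from the start, chrX:167263566-167263827 was called in all 4 libraries. It had 15 and 12 tags in Cxcr3-/- and WT monocytes and 19 and 16 in Cxcr3-/- and WT CMP/GMP. The locus ratio was 0.31 (0.03 to 0.60) in Cxcr3-/- and 0.13 (−0.18 to 0.44) in WT.

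Tlr13, which recognises bacterial ribosomal RNA in mice, had regions of either direction. Before the gene, chrX:106135997-106136639 had 53 and 55 tags in Cxcr3-/- and WT monocytes against 35 and 21 in the CMP/GMP, with log2 ratios of 1.28 (0.63 to 1.94) and 1.01 (0.26 to 1.81). Beyond its other end, chrX:106165151-106165405 had 12 tags in each monocyte library against 34 and 21 in Cxcr3-/- and WT CMP/GMP. The ratio there was −0.82 (−1.91 to 0.16) in Cxcr3-/- and −1.19 (−2.34 to −0.10) in WT. At the promoter the region had 20 and 17 tags in the monocytes and 40 and 20 in the CMP/GMP, with ratios of −0.32 and −0.62. Inside the gene, chrX:106151321-106151522 was called in CMP/GMP alone on the equal-length lists, with 28 tags in Cxcr3-/- and 12 in WT. On the full list it was also called in WT monocytes, with 17 tags. Summed, the locus had 0.20 (−0.08 to 0.47) in Cxcr3-/- and 0.06 (−0.21 to 0.32) in WT. Summed only over regions whose mean in the compared pair reached 30 tags, the locus had 0.58 (0.18 to 0.97) and 0.93 (0.38 to 1.51). In WT this kept only chrX:106134873-106135245, with 42 tags in monocytes and 18 in CMP/GMP, and the region at 106135997. In Cxcr3-/- the promoter region was kept as well. Regions with few monocyte tags, such as that at 106165151, fell below the limit. These values therefore describe the kept regions and not the locus.

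Tlr9, a sensor of unmethylated CpG DNA, had 7 regions called in all 4 libraries, and 3 of those lay in the neighbouring genes Twf2 and Alas1. At its promoter, chr9:106222266-106222853 had 34 and 56 tags in Cxcr3-/- and WT monocytes and 68 and 39 in Cxcr3-/- and WT CMP/GMP. Ratios there were −0.32 (−0.96 to 0.29) in Cxcr3-/- and 0.14 (−0.47 to 0.77) in WT, and the locus gave −0.13 (−0.34 to 0.08) and 0.07 (−0.17 to 0.31). None of the Tlr9 regions was called in 1 cell type alone in both genotypes. Tlr3, a sensor of double-stranded RNA, had only 2 regions, both called everywhere. Its promoter region had 25 and 25 tags in the monocytes and 22 and 17 in the CMP/GMP. The second, chr8:45414865-45415508, had 53, 53, 54 and 54 tags in Cxcr3-/- monocytes, WT monocytes, Cxcr3-/- CMP/GMP and WT CMP/GMP. The cell-type ratio of the locus was 0.72 (0.24 to 1.19) in Cxcr3-/- and −0.25 (−0.73 to 0.24) in WT, on few tags.

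**Figure D3:**
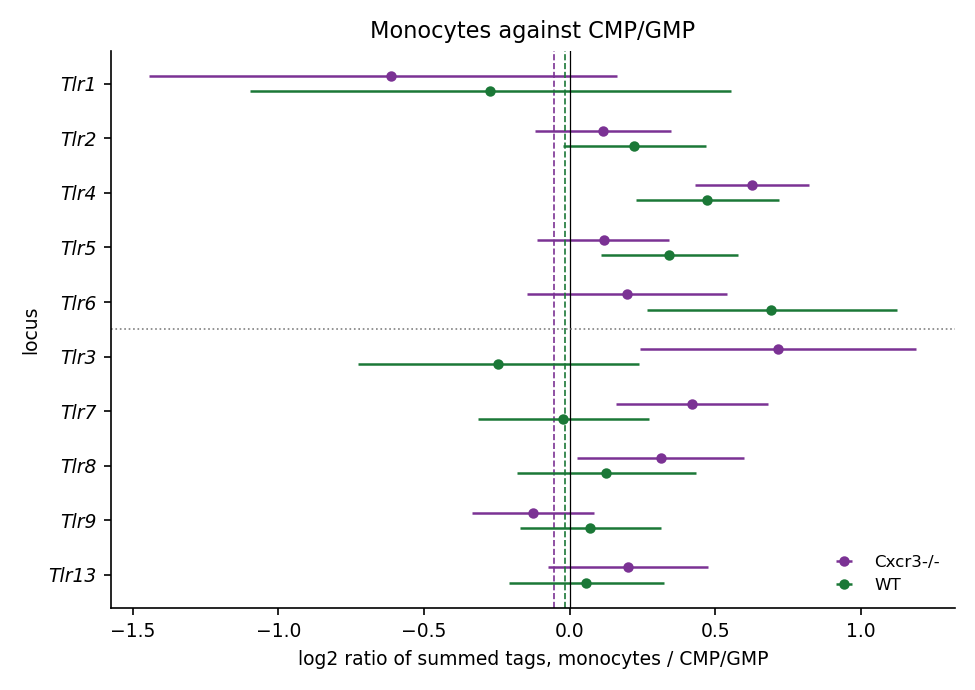
Points give the log2 ratio of summed tags in monocytes over CMP/GMP (x axis) for each Tlr locus (y axis) in Cxcr3-/- and in WT cells; bars are 95% counting intervals and dashed lines the median over all genes. Tlr4 lies above 0 in both genotypes, at 0.63 and 0.47, and Tlr1 has the lowest values, at −0.61 and −0.27, with wide intervals.

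Within Cxcr3-/- cells the counting interval lay above 0 for Tlr3, Tlr4, Tlr7 and Tlr8, that is 4 of 10 loci against 19.5% of all gene loci, and below 0 for none, against 22.9%. Centred on regions of similar gene density only Tlr3 of these 4 excluded 0, at 0.68 (0.20 to 1.15), while Tlr7 had 0.24 (−0.02 to 0.51) and Tlr8 0.14 (−0.15 to 0.42); scaled by background tags, 9 loci lay above 0. In WT cells it lay above 0 for Tlr4, Tlr5 and Tlr6, 3 of 10 against 18.8%, and below 0 for none, against 19.7%. At similar gene density 2 loci lay above 0 in WT, as a mean of the regions' log2 ratios 1, and scaled by background tags all 10. The median over the 10 loci was 0.20 in Cxcr3-/- and 0.10 in WT, beside −0.05 and −0.02 over all genes. Centred on regions of similar gene density it was 0.15 in Cxcr3-/- and −0.03 in WT. Over single regions that averaged 30 tags or more, the Tlr median was 0.22 in Cxcr3-/- and 0.12 in WT. Over all such regions it was 0.03 and 0.15, so in WT the Tlr value was not the higher one. On the X chromosome, where Tlr7, Tlr8 and Tlr13 lie, the median region ratio was −0.08 in Cxcr3-/- and −0.10 in WT. On the autosomes the median region ratio was 0.03 and 0.15. By the 2-fold rule, applied to regions that averaged 30 tags or more, 3 of 28 Tlr regions were higher in monocytes in both genotypes, against 8.4% of all regions, and none of 28 higher in CMP/GMP, against 2.86%. These 3 are the regions at 66857033 near Tlr4, 182951295 near Tlr5 and 106135997 near Tlr13. In Cxcr3-/- alone 4 of 35 were higher in monocytes, against 13.1%, and in WT alone 4 of 28, against 13.4%, with none higher in CMP/GMP in either pair, against 7.44% and 5.22%. Upward these shares stand near the background, and downward a count of 0 among 28 to 35 regions is small in number, so neither is read as a result about the family. By presence on the equal-length lists, 13 of 86 regions were called in Cxcr3-/- monocytes but not Cxcr3-/- CMP/GMP, against 20.3%, and 15 the other way, against 22.3%. In WT cells 15 of 86 were called in monocytes but not CMP/GMP, against 22.3%, and 13 the other way, against 20.9%.

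Regions called in a single library were weak. WT monocytes alone held 7 of the 98 regions, with 7 to 20 tags, or 7.14% against 12.5% of all regions. Cxcr3-/- CMP/GMP alone also held 7, with 16 to 23 tags, against 7.54%, and Cxcr3-/- monocytes alone held 3, with 12 to 15 tags, against 2.61%. One of these 3 lies over the Tlr5 promoter, chr1:182954754-182954881 with 14 tags, and another inside Tlr13, chrX:106145306-106145418 with 15. No Tlr region was called in WT CMP/GMP alone, the library with the shortest list. Regions missing from a single library were also found: 6 were absent from Cxcr3-/- monocytes alone, 4.67% of all regions being so, and 5 from WT CMP/GMP alone, against 4.94%. The 6 include 3 at Tlr13, such as chrX:106139505-106139739 with 28 tags in WT monocytes and 27 and 18 in Cxcr3-/- and WT CMP/GMP, and the 5 include a pair below Tlr4. All of these counts were taken over the full lists, which differ in length.

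The second comparison asked whether the loss of Cxcr3 altered accessibility at the Tlr genes in monocytes. No Tlr region differed by more than 2-fold, 0 of 36 in either direction, against 0.271% of all regions higher in Cxcr3-/- monocytes and 0.395% higher in WT monocytes. None of the 10 locus ratios excluded 0, where 10.8% of all gene loci lay above and 15% below. This rests on the scaling: by background tags, which moves every ratio of the comparison by −0.52, 9 of the 10 loci lay below 0, Tlr4 for example at −0.35 (−0.53 to −0.17), and Tlr3 had −0.17 (−0.65 to 0.30). The Cxcr3-/- to WT log2 ratio ran from −0.24 (−0.93 to 0.44) at Tlr1 to 0.35 (−0.13 to 0.82) at Tlr3, with a median of 0.04 beside −0.03 for all genes. Tlr4 had 0.17 (−0.01 to 0.35) and Tlr7 0.22 (−0.01 to 0.45), both just short of excluding 0. Centred on regions of similar gene density, Tlr4 had −0.11 (−0.29 to 0.07) and Tlr7 0.06 (−0.17 to 0.28). The median over the 10 loci was then −0.10. The monocyte region below Tlr4 at 66821834 had 47 tags in Cxcr3-/- monocytes against 36 in WT monocytes, a ratio of 0.73 (0.07 to 1.40), whereas the region inside Tlr4 called in monocytes alone had 0.26 (−0.24 to 0.76). On the equal-length lists 12 of 86 regions were called in Cxcr3-/- monocytes but not in WT monocytes, against 8.6%, and 7 of 86 the other way, against 9.57%. With all intervals these counts were 5 and 15 of 98, against 4.07% and 20.5% of all regions, so the direction of the larger count turned with the length of the lists.

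In CMP/GMP the same comparison gave 0 of 27 regions past 2-fold in either direction, against 0.122% higher in Cxcr3-/- CMP/GMP and 0.153% higher in WT CMP/GMP. Tlr3 was the only locus whose ratio excluded 0, at −0.62 (−1.10 to −0.13), against 3.63% of all loci below 0, and none lay above, against 4.74%. It rests on 76 tags in Cxcr3-/- CMP/GMP and 71 in WT CMP/GMP over 2 regions, and the unscaled counts are nearly equal. As a mean of the regions' log2 ratios the value was −0.53, with an interval that reaches 0. The median over the 10 loci was 0.08 beside 0.02 for all genes. Of the 86 regions on equal-length lists, 12 were called in Cxcr3-/- CMP/GMP but not in WT CMP/GMP, against 11.4%, and 3 the other way, against 8.97%. When all intervals were used, 15 of the 98 regions were called in Cxcr3-/- CMP/GMP alone of this pair, against 15.5% of all regions, and 1 in WT CMP/GMP alone, against 5.09%.

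**Figure D4:**
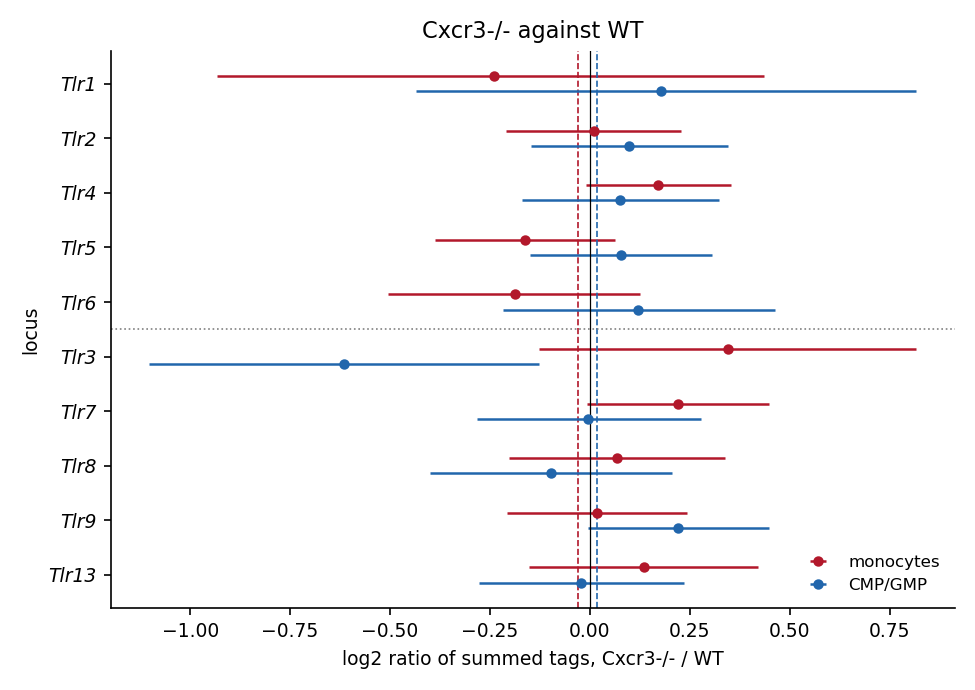
Points give the log2 ratio of summed tags in Cxcr3-/- over WT cells (x axis) for each Tlr locus (y axis) in monocytes and in CMP/GMP; bars are 95% counting intervals and dashed lines the median over all genes. With the scaling used here, all intervals but that of Tlr3 in CMP/GMP, at −0.62, include 0; scaled by background tags, 9 of the 10 in monocytes lie below 0.

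The genes that work with the receptors were counted on prepared lists, a gene being called higher or lower where its counting interval excluded 0 in both genotypes. Of all gene loci 9.74% were higher and 9.33% lower by this rule. Of 9 co-receptor and transport genes, 2 were higher in monocytes in both genotypes and 1 lower. Cd36, a scavenger receptor that assists Tlr2 with Tlr6, had a log2 ratio of 1.26 (1.06 to 1.46) in Cxcr3-/- and 0.55 (0.32 to 0.78) in WT, with 5 monocyte-only regions. One of these, chr5:17876694-17877109, had 54 and 73 tags in Cxcr3-/- and WT monocytes, 12 in Cxcr3-/- CMP/GMP, outside its equal-length list, and no call in WT CMP/GMP. Cd180, a relative of the Toll-like receptors on B cells and myeloid cells, had 0.68 (0.46 to 0.90) and 0.52 (0.23 to 0.82). Lbp, the serum protein that hands lipopolysaccharide to Cd14, had −1.56 (−1.98 to −1.16) and −1.15 (−1.51 to −0.80). Ly96, the partner that binds lipopolysaccharide with Tlr4, had −0.12 and −0.47, whose intervals include 0, but also 1 monocyte-only region, chr1:16702850-16703360, with 49 and 34 tags in Cxcr3-/- and WT monocytes. Cd14 itself had −0.05 and 0.13. For Unc93b1, which carries the endosomal receptors out of the endoplasmic reticulum, the ratio was −0.61 (−0.88 to −0.35) in Cxcr3-/- and 0.07 (−0.21 to 0.35) in WT.

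Among 21 adaptors and kinases 3 were higher in monocytes in both genotypes and 2 lower. Tbk1 and Ikbke, related kinases that activate interferon regulatory factors, had ratios of 0.83 and 0.68 in Cxcr3-/- and of 0.63 and 0.65 in WT. Myd88, the shared adaptor, had 0.39 (0.22 to 0.57) and 0.24 (0.04 to 0.44). Ikbkg, the regulatory subunit of the kinase complex that releases NF-kB, had −0.37 and −0.34, and Tab2, which links Traf6 to the kinase Map3k7, had −0.44 and −0.74. Ticam1, the adaptor of Tlr3, had 3 regions called in CMP/GMP alone on the equal-length lists. Among them was chr17:56289406-56289680 with 48 tags in Cxcr3-/- and 24 in WT. Another, chr17:56283369-56283609, was also called in WT monocytes on the full list, with 7 tags. None of 9 transcription factors was higher or lower in both genotypes. Irf8, a factor of monocyte and dendritic cell development, had 0.30 in Cxcr3-/-, whose interval includes 0, and 0.53 (0.17 to 0.90) in WT. It had 5 monocyte-only regions on the equal-length lists. Those at 120736568 and 120759876 were also called in Cxcr3-/- CMP/GMP on the full list, with 17 and 14 tags. Rel, an NF-kB subunit, had −0.47 (−0.81 to −0.13) and −0.33 (−0.68 to 0.02). Of 9 negative regulators none was higher and 2 were lower. They were Socs1, an inhibitor of cytokine signalling, at −0.93 and −0.49, and Tnfaip3, a ubiquitin-editing inhibitor of NF-kB, at −0.91 and −0.42. In all, 5 of the 50 genes, the receptors Tlr11 and Tlr12 included, were higher and 5 lower in both genotypes, beside 9.74% and 9.33% of all loci. These counts rest on the scaling. Scaling by background tags would raise every ratio by 0.49 in Cxcr3-/- and 1.11 in WT. That WT shift exceeds the size of the WT ratios of Ikbkg, Tab2, Socs1 and Tnfaip3, and Lbp, at −1.15 in WT, stands close to it. The pathway counts were not repeated under that scaling.

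Tlr11 and Tlr12, which recognise a protein of protozoan parasites in mice, had 0.16 and 0.19 in Cxcr3-/- and −0.66 and −0.19 in WT. The pathway genes whose 4 log2 ratios, 1 per comparison, lay nearest to the median of the 10 receptors were Map3k8, Traf6 and Myd88, at Euclidean distances of 0.13, 0.25 and 0.27. The 4 comparisons share libraries, so these distances only describe the values. Presence on the equal-length lists gave 60 of 455 pathway regions, or 13.2%, in monocytes alone, against 13.3% of all regions, and 35, or 7.69%, in CMP/GMP alone, against 11.6%. Other receptor families were set beside the Tlr genes. The same shares of all loci, 9.74% higher and 9.33% lower, apply to them. Counts are per gene, and a region shared by neighbouring loci enters each of them, so they need not be counts of separate loci. Of 15 C-type lectin genes, pattern receptors for sugars, 5 were higher and 1 lower in monocytes in both genotypes, with medians of 0.52 in Cxcr3-/- and 0.21 in WT. Of 10 Fc receptor genes with a ratio, which bind antibodies, 2 were higher and 1 lower, with medians of 0.02 and 0.34. The corresponding count for the Tlr genes was 1 of 10 higher and none lower, and the difference between the families was not tested, since each comparison holds a single pair of libraries.

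**Figure D5:**
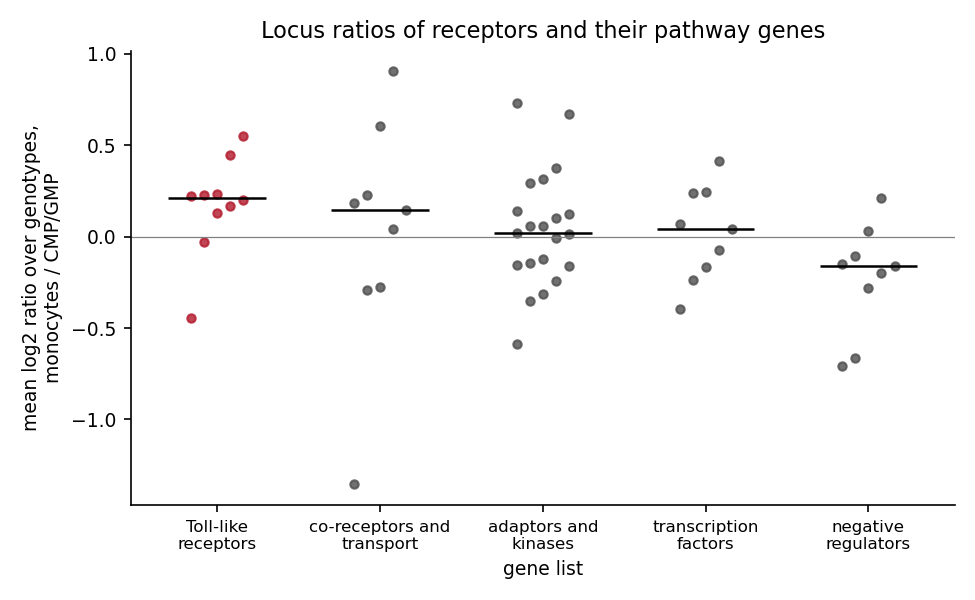
Points give the mean over the genotypes of the log2 ratio of summed tags in monocytes over CMP/GMP (y axis) for each gene of the Tlr family and of 4 lists of pathway genes (x axis), with the median as a bar. Cd36 stands highest at 0.90 and Lbp lowest at −1.36, both in the list of co-receptors and transport.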

How the data were processed

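Omni-ATAC-seq libraries of cultured mouse cells were grouped by their labels, 1 library per group. Per the submitters' processing notes, reads were handled with Trim Galore, Bowtie2 and SAMtools on mm10; the sources used here name no peak caller and do not say whether the duplicate sequencing runs in the labels were pooled. The deposited lists give for each interval a fold (a ratio of summit pileup to background) and a −log10 p and −log10 q, all computed by the authors' caller, and a score, which in the deposited files equals 10 times the −log10 q. These are each interval's own values.

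The tag pileup was computed from the deposited fold and −log10 p, assuming a Poisson background and 1 added tag. Within a tolerance of 0.001 no whole number fitted 0, 1, 2 and 0 intervals in Cxcr3-/- monocytes, WT monocytes, Cxcr3-/- CMP/GMP and WT CMP/GMP, and the method was tested on simulated data. Intervals sharing a base were merged into regions, and scale factors came from the median over the 44588 regions with a pileup in all 4 libraries. Presence was compared on lists that each kept their 69521 intervals of lowest q, as many as the shortest list holds. A locus ratio is the ratio of tags summed over regions called in both libraries, with an exact 95% Clopper-Pearson interval, and the 2-fold rule was applied to regions with a mean unscaled pileup of at least 30 tags. The tags needed for a call were taken from the background of the nearest called interval within 10 kb. PCR reads are not independent molecules, so intervals cover counting error only. Genotypes were compared within each cell type and cell types within each genotype, without a test.

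The members, lists, markers and named-gene rule were chosen with earlier results of these data known. By that rule all 10 members and their regions may be named, and pathway genes were named for regions called in 1 cell type alone, for the 5 largest and 5 smallest mean cell-type ratios and for the 3 nearest patterns. Unc93b1, Ly96 and Ticam1 were among the genes with such regions, and the values of Tlr11, Tlr12, Cd14 and Ikbkg were added after they had been seen. Trac, a T-cell marker, had no match. The motif search planned around summits was made in promoter windows instead, since only promoter sequence was used here. Software was Python 3.11.15, pandas 2.3.3, numpy 2.4.6, scipy 1.17.1 and matplotlib 3.10.9.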

Additional observations from a re-analysis of the deposited data

How the results depend on the processing

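No paired analysis was possible because each group holds 1 library. Values follow the order Cxcr3-/- monocytes, WT monocytes, Cxcr3-/- CMP/GMP, WT CMP/GMP. The Tlr loci held 32, 36, 31 and 23 intervals in gene bodies alone, and 120, 143, 117 and 101 with 50 kb on either side. With all intervals in place of equal-length lists, 13 regions were called in monocytes alone and 3 in CMP/GMP alone, in both genotypes. Cxcr3-/- monocytes but not WT monocytes then had 5 and the reverse 15, WT CMP/GMP but not Cxcr3-/- CMP/GMP 1, WT monocytes but not WT CMP/GMP 27 and the reverse 4. A −log10 q of at least 5 left 2 regions in CMP/GMP alone. A reciprocal overlap of 50% gave 20 regions in Cxcr3-/- CMP/GMP but not WT CMP/GMP, 11 the reverse, and 20 in Cxcr3-/- monocytes but not Cxcr3-/- CMP/GMP. Past 2-fold, a mean pileup of at least 60 tags left 0 regions higher in monocytes in Cxcr3-/-, 0 in WT and 0 in both, and one of at least 15 gave 1 higher in CMP/GMP in Cxcr3-/- and 2 in WT.

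Scaling by background tags moved every ratio of Cxcr3-/- against WT by −0.52 in monocytes and 0.10 in CMP/GMP, and of monocytes against CMP/GMP by 0.49 in Cxcr3-/- and 1.11 in WT. Ratios keep their order within a comparison, but the counts past 2-fold became 1 higher in WT monocytes than in Cxcr3-/- monocytes, and 9, 24 and 5 higher in monocytes in Cxcr3-/-, in WT and in both. Loci excluding 0 became 9 below in monocytes and 1 above in CMP/GMP for genotype, and 9 and 10 above in Cxcr3-/- and WT for cell type. Centred on regions of similar gene density, 1 locus, Tlr3, was above 0 for cell type in Cxcr3-/-. As a mean of the regions' log2 ratios, 1 locus (Tlr7, 0.27) was above 0 for genotype in monocytes, 0 were below in CMP/GMP and 1, Tlr4, was above for cell type in WT. In the full 300 bases of the promoter windows, a choice added after seeing the data, 2 genes held the PU.1 motif. The cause of these changes was not tested. The other 99 values of counts under an alternative were within 1.5 times. Of single-locus ratios 162 stayed within their counting interval and 36 did not, 28 of them under background scaling, and no called value changed sign. The planned wider window around summits was not run, since no genome sequence was used here. Depth limits single regions: 34 against 25 tags near Tlr2 left a log2 interval of 0.33 to 1.93.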
